A study of Mus musculus with 31 samples.

Results

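The interferon regulatory factors are a family of transcription factors, here the genes whose symbol is Irf followed by a single digit. The arrays carried 8 such genes, Irf1, Irf2, Irf3, Irf4, Irf5, Irf7, Irf8 and Irf9, each on 1 probe, out of 10600 named genes on 13872 probes. Membership followed from the gene symbol alone and used no measured value. Of these 8 probes 7 had enough values for the tests, and Irf4 did not.

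Family members share an amino-terminal DNA-binding domain that reads GAAA repeats, as found in the interferon-stimulated response element. Irf3 and Irf7 lie latent in the cytoplasm until the kinases Tbk1 and Ikbke phosphorylate them downstream of Toll-like receptors and nucleic acid sensors, and they then switch on type I interferon genes. Toll-like receptor 4, the receptor for lipopolysaccharide (LPS), signals through a pair of adaptor routes. Myd88 leads to NF-kB and inflammatory cytokines, and Trif (Ticam1) leads to Irf3 and interferon beta. Irf5 and Irf7 can also bind Myd88 itself, which makes the family a useful readout in cells that lack this adaptor. Irf9 joins Stat2 in the complex that carries the signal of type I interferon to the nucleus. Irf1 is an inducible activator, Irf2 is its antagonist on many promoters, and Irf8 and Irf4 pair with the factor Spi1 (PU.1) in myeloid and lymphoid cells.

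Bone marrow of wild-type (C57BL/6J) and MyD88-deficient (MyD88-/-) mice aged 6 to 8 weeks was cultured for 8 days into macrophages, in medium with 10% serum and 15% conditioned medium of L929 cells as the source of Csf1. The cells of both genotypes were exposed for 2 h to 10 ng/mL of re-purified LPS, to live E. coli at 1 bacterium per macrophage, or to medium alone (mock). Each of 31 spotted arrays compared stimulated with mock cells of 1 mouse in 2 dyes, and all but 1 of the 16 mouse and stimulus combinations had a second array with the dyes exchanged. The groups were wild-type with LPS, MyD88-/- with LPS, wild-type with E. coli and MyD88-/- with E. coli, with 4 mice each, and the fourth MyD88-/- LPS mouse had 1 array. The labels do not say how the Myd88 allele was made, whether the MyD88-/- mice had the C57BL/6J background, or whether equal mouse numbers in the LPS and E. coli groups mark the same animal and a shared mock culture.

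All values are log2 ratios, read as stimulated over mock. This direction is likely rather than stated. It follows the order of conditions in the sample titles. No pair of the 31 arrays correlated below 0 over all probes (lowest r = 0.12). That bears on whether the arrays share a direction, and cannot tell which direction it is. A ratio holds no level, so family members cannot be ranked by abundance, and the Myd88 probe, with a ratio of 2.16 in MyD88-/- cells given LPS, cannot check the knockout. Arrays held between 5564 and 10497 values. None of the values at the floor of the deposited scale belonged to a family probe. Probes for 12 macrophage markers had a value on 82.8% of their array spots, against 36.9% for T cell, 38.7% for B cell, 54.5% for neutrophil and 57.3% for dendritic cell markers.

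Promoters of this family are known targets of interferon and NF-kB signalling, so their sequences are shown first. For Irf1, which rose most, and Irf8, which fell, the 250 bases before the first of 2 annotated starts of transcription are given from RefSeq on mouse build GRCm38.p6. Irf7, which rose in MyD88-/- cells, is given as a member with none of the searched motifs. Capitals mark matches, on either strand, to the interferon-gamma activated site TTCNNNGAA (GAS) and to the NF-kB consensus. The first line lies at chr11:53769764-53770013 on the plus strand, the second at chr8:120736108-120736357 on the plus strand and the last at chr7:141266425-141266674 on the minus strand, each printed 5′ to 3′ in the direction of transcription.
Irf1: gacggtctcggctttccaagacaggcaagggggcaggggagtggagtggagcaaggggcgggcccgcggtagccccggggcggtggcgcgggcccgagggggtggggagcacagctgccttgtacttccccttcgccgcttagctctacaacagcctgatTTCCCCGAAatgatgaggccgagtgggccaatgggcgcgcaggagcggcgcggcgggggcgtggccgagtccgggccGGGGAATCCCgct
Irf8: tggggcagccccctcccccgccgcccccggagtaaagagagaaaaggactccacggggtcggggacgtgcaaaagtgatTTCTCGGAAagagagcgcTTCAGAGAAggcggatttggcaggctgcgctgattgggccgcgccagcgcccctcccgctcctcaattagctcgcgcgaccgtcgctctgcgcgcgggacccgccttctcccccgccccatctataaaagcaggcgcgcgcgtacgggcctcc
Irf7: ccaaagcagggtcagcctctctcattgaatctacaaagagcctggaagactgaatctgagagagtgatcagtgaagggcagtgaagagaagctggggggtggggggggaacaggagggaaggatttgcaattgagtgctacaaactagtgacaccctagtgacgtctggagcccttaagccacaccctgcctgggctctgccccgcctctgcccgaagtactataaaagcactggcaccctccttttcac

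The Irf1 window held 1 GAS match, TTCCCCGAA, 90 to 82 bases before the start, and 1 NF-kB match, GGGGAATCCC, 13 to 4 bases before it. The Irf8 window held 2 GAS matches, TTCTCGGAA and TTCAGAGAA, 171 to 163 and 153 to 145 bases before the start. Irf2 held all 3 motifs searched: a GAS match, an NF-kB match and the core of the interferon-stimulated response element, searched as a pair of GAAA repeats with any 2 bases between them, which was matched 241 to 232 bases before its start. Windows of the same length were available for all 8 members and for 32851 starts in all. Of these, 7.02% held a GAS match, 7.25% an NF-kB match and 2.98% the response element core, so each match is also found by letters alone at many unrelated promoters. The first windows of Irf3, Irf4, Irf5, Irf7 and Irf9 held none of the 3, nor did the windows of the second starts of Irf1, Irf8 and Irf9, which says only that these letters are not within these 250 bases. A match is a description of the sequence and was not tested as a binding site.

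Irf1 was the family member that rose most. It is an early-induced activator of antigen presentation, guanylate-binding protein and nitric oxide synthase genes. In wild-type cells given LPS, the 4 mice had log2 ratios of 4.06, 3.31, 3.30 and 3.76. In MyD88-/- cells given LPS they had 4.16, 5.52, 4.19 and 3.43. With E. coli the wild-type mice had 4.13, 5.11, 3.52 and 3.07, and the MyD88-/- mice 3.91, 4.81, 3.79 and 4.42. Every mouse in every group lay far above 0, the probe was above 0 on all 31 arrays, and the ranges of the 2 genotypes overlapped for both stimuli. The fitted log2 ratios (limma, SE 0.32 in each group, n = 4 mice) were 3.61 with LPS and 3.95 with E. coli in wild-type cells, and 4.33 and 4.23 in MyD88-/- cells. These are rises of 12.2-, 15.5-, 20.1- and 18.8-fold in the same order. All 4 passed the test, with Benjamini-Hochberg adjusted p from limma between 2.75e-07 and 1.1e-06 over 7325 probes. Irf1 stood 25th highest of all probes tested in wild-type cells given LPS and 4th highest in MyD88-/- cells given LPS.

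Irf8 was the only member to fall, and it fell in all 4 responses. Irf8 directs the choice of the macrophage over the granulocyte fate and works with Spi1 on macrophage promoters. The wild-type mice given LPS had -1.09, -0.93, -2.05 and -1.26, and the MyD88-/- mice given LPS -1.38, -1.29, -1.70 and -1.68. The wild-type mice given E. coli had -0.20, -1.01, -0.83 and -0.96, and the MyD88-/- mice -1.08, -0.98, -2.11 and -1.44. All 16 values and all 31 arrays were below 0, and the shallowest value came from the first wild-type E. coli mouse. The fitted log2 ratios (SE 0.20, n = 4) were -1.33 with LPS and -0.75 with E. coli in wild-type cells, and -1.51 and -1.40 in MyD88-/- cells, with adjusted p from limma of 0.000266, 0.0154, 0.000111 and 0.000209. On the linear scale the transcript was 2.51-fold and 1.68-fold lower in wild-type cells and 2.85-fold and 2.64-fold lower in MyD88-/- cells, in the same order.

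The smallest of these falls, with E. coli in wild-type cells, did not pass when wild-type E. coli mouse 2 (adjusted p = 0.0755 by limma), mouse 3 (0.0561) or mouse 4 (0.0716) was left out. In RNA of whole cultures, fewer cells that express a gene and less of its RNA per cell cannot be told apart. Irf8 is also high in dendritic and B cells, so their markers were read beside it. Of 2 dendritic markers tested, Zbtb46 was higher in wild-type cells given LPS (0.70, adjusted p = 0.0338) and Itgax passed in no response. Of 3 B cell markers tested, Cd79a was lower in MyD88-/- cells given LPS (-1.05, adjusted p = 0.0119) and the other two passed in no response. Zbtb46 did not pass without wild-type LPS mouse 1 (adjusted p = 0.128 by limma), 3 (0.218) or 4 (0.0569), and Cd79a did not without MyD88-/- LPS mouse 4 (0.104). Of 2 T cell markers tested 1, Cd28, was lower in all 4 responses (-1.10 and -1.02 with LPS, -1.12 and -1.25 with E. coli, in wild-type and MyD88-/- cells). Of 9 macrophage markers tested 2 were lower in each wild-type response, 1 in MyD88-/- cells given LPS and none in MyD88-/- cells given E. coli, and 1, Msr1, was higher in all 4. Their part in the Irf8 result was not tested.

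**Figure D1:**
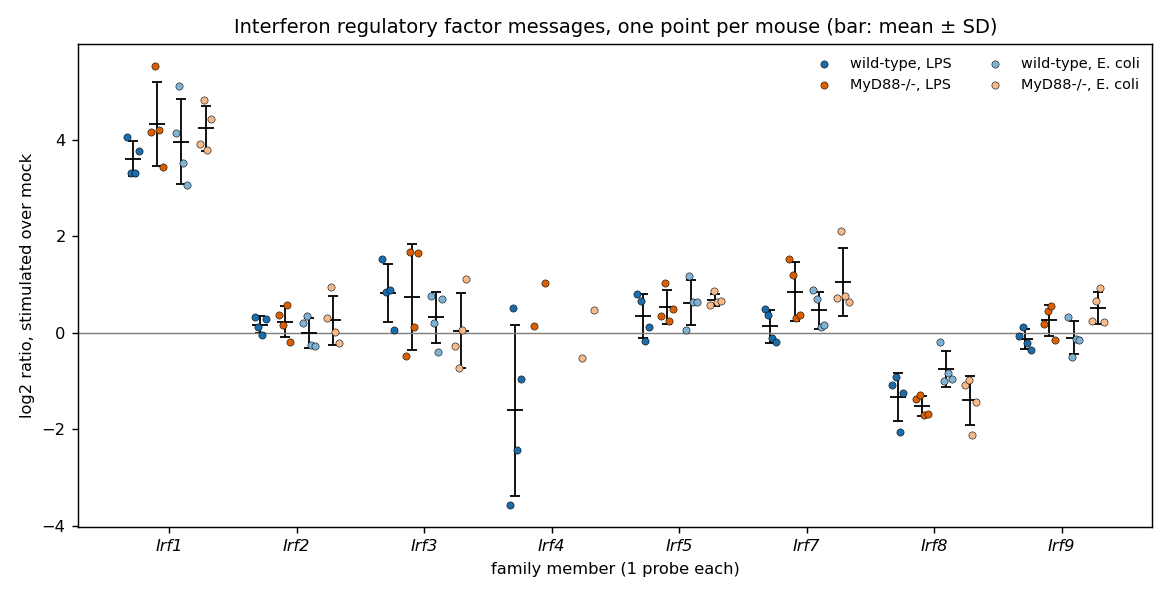
Log2 ratio of stimulated over mock for each family member, the untested Irf4 included, with 1 point per mouse in the 4 groups of genotype and stimulus. Bars show the mean ± SD of groups with a value in at least 3 mice. Irf1 lay between 3.07 and 5.52 in every mouse and Irf8 between -2.11 and -0.20, while the other members each had at least 1 mouse below 0.

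Irf7 is the interferon-inducible member that amplifies type I interferon production once a first wave of interferon has been sensed. Its log2 ratios in wild-type cells given LPS were 0.49, 0.36, -0.12 and -0.20, spread on both sides of 0. In MyD88-/- cells given LPS they were 1.52, 1.20, 0.30 and 0.36, with the first 2 mice far above the others. With E. coli the wild-type mice had 0.89, 0.69, 0.12 and 0.17, and the MyD88-/- mice 0.71, 2.11, 0.76 and 0.63, where the second mouse stood alone. Irf7 rose in MyD88-/- cells, with a fitted log2 ratio of 0.84 ± 0.25 (SE, n = 4) for LPS, adjusted p = 0.0456 by limma, and 1.05 for E. coli, adjusted p = 0.0122, a 2.08-fold rise. The wild-type values were 0.13 (adjusted p = 0.771) for LPS and 0.47 (adjusted p = 0.219) for E. coli.

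The Irf7 call with E. coli rested on 1 mouse, and that with LPS was close to the threshold. The LPS call was lost without MyD88-/- LPS mouse 1 (0.62, adjusted p = 0.261 by limma) and without mouse 2 of that group (0.73, adjusted p = 0.17), and it held in 4 of 16 fits that each left out a mouse. In that first mouse the unswapped array gave 2.82 and the swapped array 0.22. The E. coli call was lost without MyD88-/- E. coli mouse 2 (0.70, adjusted p = 0.104).

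Irf5, which binds Myd88 and drives Il12 and other inflammatory cytokine genes in macrophages, rose modestly with E. coli. The wild-type mice given E. coli had 0.049, 1.18, 0.64 and 0.63, and the MyD88-/- mice 0.57, 0.86, 0.64 and 0.66. With LPS the wild-type mice had 0.81, 0.65, -0.18 and 0.12, and the MyD88-/- mice 0.34, 1.03, 0.25 and 0.49. The MyD88-/- cultures were above 0 in every mouse with both stimuli, and wild-type LPS mouse 3 was the only value below 0. All 4 MyD88-/- mice were above 0 in 14.4% of all probes with LPS and in 14.3% with E. coli. The fitted E. coli responses were 0.62 ± 0.19 (SE, n = 4; adjusted p = 0.0259 by limma) in wild-type and 0.68 (adjusted p = 0.0271) in MyD88-/- cells. With LPS they were 0.35 (adjusted p = 0.23) and 0.53 (adjusted p = 0.0939). Leaving out wild-type E. coli mouse 2, 3 or 4 ended the Irf5 call in wild-type cells (adjusted p = 0.16, 0.0753 and 0.0744 by limma), and leaving out any 1 MyD88-/- E. coli mouse ended that in MyD88-/- cells (0.059 to 0.126).

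Swapped arrays gave a higher Irf5 ratio than unswapped arrays in only 2 of 15 pairs, with a mean difference of -0.449. A dye term fitted on single arrays was -0.44 ± 0.15 and did not pass (adjusted p = 0.0522 by limma). On swapped arrays alone the E. coli responses of Irf5 were 0.31 in wild-type (adjusted p = 0.418 by limma) and 0.41 in MyD88-/- cells (0.337), and on unswapped arrays alone 0.94 (0.00303) and 0.95 (0.00446). Each E. coli mouse had an array of both orientations. The fit of single arrays with the dye term gave the same 0.62 and 0.68, with adjusted p of 0.00378 and 0.00273 by limma. That fit took the correlation between arrays of a mouse as 0.118. Over all probes it called 1842 in wild-type and 1038 in MyD88-/- cells, against 1554 and 789 in the main fit. The smaller adjusted p is therefore not particular to Irf5.

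Irf9, the DNA-binding subunit of the complex formed with Stat2, passed the test in no response. The wild-type mice had -0.077, 0.13, -0.22 and -0.36 with LPS and 0.34, -0.50, -0.12 and -0.14 with E. coli. The MyD88-/- mice had 0.17, 0.45, 0.56 and -0.16 with LPS and 0.24, 0.65, 0.93 and 0.23 with E. coli. All 4 MyD88-/- mice given E. coli were above 0, while 3 of 4 wild-type mice in each stimulus were below it. Its highest fitted response was 0.51 ± 0.16 (SE, n = 4) in MyD88-/- cells given E. coli, adjusted p = 0.055 by limma, close to the threshold of 0.05. That value passed in 5 of 11 alternative analyses by limma, among them those that centred each array (adjusted p = 0.0359) and those that fitted a dye term (0.00501). The fit with a dye term called 1038 of all probes in that response, against 789 in the main fit.

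Irf9 carried a dye difference of its own, in the other direction from Irf5. Swapped arrays were higher in 12 of 15 pairs, and the dye term was 0.37 ± 0.12 (adjusted p = 0.0354 by limma, where 10.3% of all probes tested passed for the dye term).

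**Figure D2:**
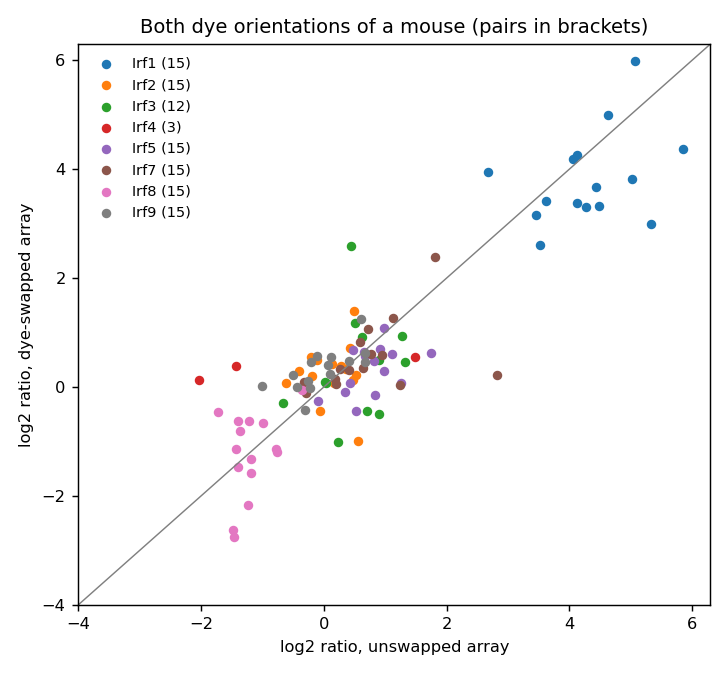
Log2 ratio on the swapped against the unswapped array of the same mouse and stimulus for each member, the untested Irf4 included. Points are dye pairs, and the line marks equal values. Irf1 and Irf8 kept their sign on every array, Irf5 lay mostly below the line (2 of 15 pairs above) and Irf9 mostly above it (12 of 15).

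Irf3, which is present before stimulation and is activated by phosphorylation, varied most between mice among the 7 members. Its values were 1.52, 0.84, 0.89 and 0.05 in wild-type cells given LPS and -0.48, 1.67, 0.12 and 1.66 in MyD88-/- cells given LPS. With E. coli they were 0.77, 0.20, -0.39 and 0.69 in wild-type and -0.27, -0.72, 0.058 and 1.10 in MyD88-/- cells. Among these, 1.67 and 1.66 came from an unswapped array alone, and -0.27 and -0.72 from a swapped array alone. Dye and mouse cannot be told apart in those values. The fitted MyD88-/- LPS ratio was 0.74, and its lowest value over the alternative analyses was -0.37. The pooled SD over mice of the Irf3 ratio was 0.782, against a median of 0.412 over all probes tested, and the probe had values on 28 of 31 arrays. The fitted ratio ranged from 0.82 ± 0.36 (SE, n = 4; adjusted p = 0.139 by limma) in wild-type cells given LPS to 0.04 (adjusted p = 0.97) in MyD88-/- cells given E. coli, so no response passed. Irf2, the antagonist of Irf1, stayed between -0.27 and 0.95 in the 16 mice, and its fitted ratios lay between 0.0028 and 0.26 (SE 0.18), with adjusted p from 0.433 to 0.995.

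Irf4, a lymphoid and dendritic cell member that restrains Toll-like receptor signalling by binding Myd88, was measured on only 11 of 31 arrays and in 8 mice. The wild-type mice given LPS had -3.56, 0.51, -2.43 and -0.95, and in the last of these the unswapped array gave -2.03 and the swapped array 0.13. With LPS 2 MyD88-/- mice had 0.13 and 1.02, no wild-type mouse given E. coli had a value, and 2 MyD88-/- mice given E. coli had -0.52 and 0.48. These values spread over both signs, and Irf4 was not tested.

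Counted over the 7 members tested, the family response to LPS in wild-type cells was 1 member higher (Irf1), 1 lower (Irf8) and 5 that did not pass. There 17% of all 7325 probes were called, 7.99% higher and 9.04% lower. In MyD88-/- cells given LPS 2 members were higher (Irf1 and Irf7) and 1 lower, beside 9.98% of all probes called, 5.28% higher and 4.7% lower. With E. coli 2 were higher in wild-type cells (Irf1 and Irf5) and 1 lower, beside 21.2% of all probes, 9.43% higher and 11.8% lower. In MyD88-/- cells given E. coli 3 were higher (Irf1, Irf5 and Irf7) and 1 lower, beside 10.8% of all probes, 6.35% higher and 4.42% lower. The median log2 ratio of the members was 0.17, 0.53, 0.32 and 0.51 in the same order, where that of all probes tested lay between -0.057 and -0.048. Irf1 was higher in all 4 responses, as were 3.49% of all probes tested, and Irf8 lower in all 4, as were 2.44%. Every mouse of every group was above 0 in 5.22% of all probes and below 0 in 5.06%, as for Irf1 and Irf8.

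The genotype comparison asks which responses need the adaptor Myd88. No member differed between MyD88-/- and wild-type cells after adjustment, for LPS (0.287% of all probes called by limma) or for E. coli (0.751%). Irf1, the strongest responder, differed by 0.72 (MyD88-/- minus wild-type, 95% confidence interval -0.24 to 1.68) for LPS and by 0.28 (-0.69 to 1.24) for E. coli, so the intervals reach down to a response smaller by 0.24 and by 0.69 in MyD88-/- cells. Irf7 differed by 0.71 (-0.05 to 1.47, adjusted p = 0.599) and 0.59 (-0.17 to 1.35, adjusted p = 0.519), so its call in MyD88-/- cells alone does not show a genotype difference. Irf5 differed by 0.18 (-0.38 to 0.74) and 0.06 (-0.50 to 0.62).

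The members nearest to a genotype difference were Irf9 and Irf8, both for E. coli. Irf9 was 0.62 above wild-type (0.13 to 1.10, adjusted p = 0.238 by limma) and Irf8 0.65 below (-1.27 to -0.04, adjusted p = 0.336). Their unadjusted p of 0.0157 and 0.0389 were the only ones under 0.05 among the 7 members in either genotype comparison. In no member did the 4 MyD88-/- mice and the 4 wild-type mice separate without overlap for LPS or for E. coli, where 6.68% and 9.08% of all probes did. For LPS, Irf9 differed by 0.39 (-0.09 to 0.87) and Irf8 by -0.18 (-0.80 to 0.43). The differences of Irf3 and Irf2 lay between -0.27 and 0.26, and the interval of Irf3 spanned -1.17 to 1.00 for LPS, so a difference of up to about that size could not be seen.

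**Figure D3:**
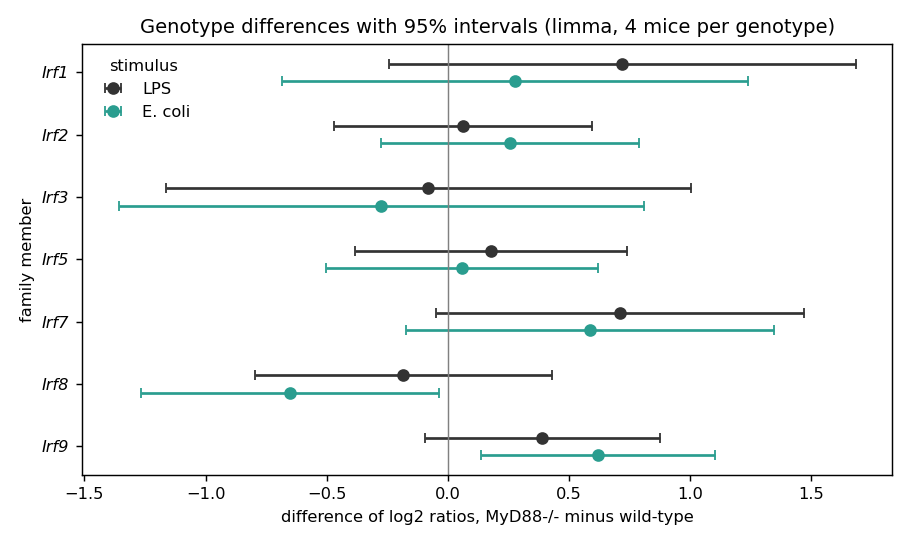
Genotype difference (MyD88-/- minus wild-type) of the log2 response of each tested member for LPS and for E. coli, as the fitted value and its 95% confidence interval. Only the intervals of Irf8 (-1.27 to -0.04) and Irf9 (0.13 to 1.10) for E. coli leave out 0, and none passed after adjustment.

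The stimuli were compared within each genotype, and no member differed between E. coli and LPS by limma, with 0% of all probes called in either genotype. No member had mice that separated without overlap between the stimuli, where 2.65% of all probes did in wild-type and 2.32% in MyD88-/- cells. The largest wild-type difference among the members was that of Irf8, 0.58 less negative with E. coli (95% confidence interval -0.03 to 1.19). No member had an unadjusted p under 0.05 in these comparisons or in the interaction of genotype and stimulus. Over all probes that count was 297 and 177 in the stimulus comparisons and 219 in the interaction.

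How far members varied together was described over the 16 mouse-level ratios, which pool the 4 groups. Irf1 and Irf7 had a Pearson r of 0.65, Irf2 and Irf7 0.60, and Irf7 and Irf9 0.57. Irf1 also had an r of 0.55 with Irf5 and 0.53 with Irf2, and Irf5 had 0.41 with Irf7. Irf4 and Irf9 had 0.69 over the 8 mice with an Irf4 value. Most of these Irf4 values came from an unswapped array alone, among them the lowest, -3.56 and -2.43, both in wild-type cells given LPS. Some other pairs were near 0, such as Irf1 and Irf3 (-0.0081), Irf5 and Irf9 (0.07) and Irf1 and Irf8 (0.13). Irf3 and Irf7 (-0.30) and Irf2 and Irf3 (-0.46) were below it. These are descriptions, since the ratios share arrays, mice and possibly mock cultures. For each member called in any response, the 3 most similar probes were sought among 6091 by Pearson r. For Irf7 these were the interferon-induced genes Rsad2 (r = 0.91, Spearman rho = 0.89), Ifi47 (0.85, rho = 0.81) and Ifit3 (0.84, rho = 0.87). Rsad2 encodes the antiviral protein viperin. Its r was 0.87 both within groups and without the 2 mice farthest from the median of Rsad2. For Ifi47 and Ifit3, r was 0.67 and 0.69 without the 2 mice farthest from the median of the gene compared.

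For Irf1 the most similar probes were Stat2, a signal transducer of type I interferon (r = 0.79, rho = 0.83), Ninj1 (0.78) and Abca3 (0.78). Stat2 had an r of 0.84 within groups. Without the 2 mice farthest from the median of the gene compared, r was 0.74 for Stat2, 0.64 for Ninj1 and 0.59 for Abca3. For Irf5 they were Lgals3bp (0.89), Cyba (0.85) and H2-Q8 (0.85), and for Irf8 they were Pde6a (0.80 over 15 mice), Tob2 (0.77 over 15) and Phf6 (0.76 over 14). Likeness over mice and the size of a response are different quantities: Pde6a, most like Irf8, had a mean log2 ratio between 2.44 and 4.45 in the 4 groups, where Irf8 fell.

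**Figure D4:**
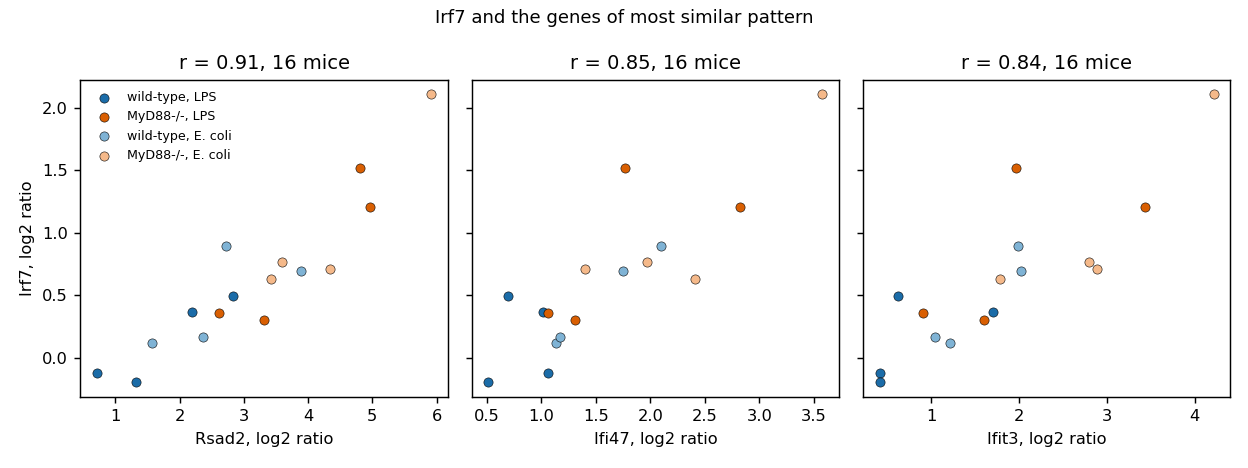
Log2 ratio of Irf7 (vertical) against that of Rsad2, Ifi47 and Ifit3 (horizontal) over the 16 mouse-level ratios, with the groups in different colours. Pearson r is 0.91, 0.85 and 0.84, and the MyD88-/- E. coli mouse with an Irf7 ratio of 2.11 lies at the top of each panel.

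Around the family, the receptors and kinases that lead to it were read from lists of genes. Of 8 upstream receptors and adaptors tested, 2 were higher and 1 lower in wild-type cells given LPS, and 2 higher in MyD88-/- cells given LPS, with list medians of 0.63 and 0.41. Over all probes 7.99% were higher and 9.04% lower in the wild-type response, and 5.28% and 4.7% in the MyD88-/- response. With E. coli 2 were higher and 1 lower in wild-type cells and 1 higher in MyD88-/- cells (all probes 9.43%, 11.8% and 6.35%). Those higher with LPS were the lipoprotein receptor Tlr2 (2.49 and 3.08) and Myd88 (1.38 and 2.16). In the MyD88-/- LPS mice the Myd88 ratio ranged from 0.87 to 4.70, and it was 1.32 without mouse 4, which had 1 array (adjusted p = 0.0016 by limma). The wild-type Myd88 call was lost without any 1 of the wild-type LPS mice. Tlr9, the receptor for unmethylated DNA, was lower in wild-type cells (-0.79), but not without wild-type LPS mouse 1 (-0.58, adjusted p = 0.107).

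Of 7 IRF kinases and associated proteins, 2 were higher in each response but wild-type E. coli, where 3 were, and none was lower (medians 0.42 and 0.36 with LPS and 0.46 and 0.30 with E. coli, in wild-type and MyD88-/- cells). Over all probes the share called higher ran from 5.28% to 9.43% over the 4 responses. The scaffold Tank rose (1.21 and 1.09 with LPS) and the kinase Tbk1 rose by a small amount in all 4 responses, 0.32 (adjusted p = 0.0493 by limma) in wild-type and 0.36 (0.0428) in MyD88-/- cells given LPS. These 2 Tbk1 calls were close to the threshold and held in 3 and 5 of 16 fits that each left out a mouse. The related kinase Ikbke had 0.42 and 0.32 with LPS and passed in no response.

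Of 8 genes of interferons and their receptor signalling, 2 were higher with LPS in each genotype, and with E. coli 2 were higher in wild-type and 4 in MyD88-/- cells. The medians were 0.43 and 0.50 with LPS and 0.29 and 0.58 with E. coli. In the same order 7.99%, 5.28%, 9.43% and 6.35% of all probes were higher. The kinase Jak2 rose by 3.32 and 2.78 with LPS in wild-type and MyD88-/- cells, and the interferon-gamma receptor chain Ifngr1 by 0.80 and 1.00. The Ifngr1 calls were lost without any 1 wild-type LPS mouse (adjusted p = 0.051 to 0.0836 by limma) and without MyD88-/- LPS mouse 4 (0.0702). With E. coli, Ifnb1, which encodes interferon beta, rose in wild-type cells (1.75, adjusted p = 0.000381 by limma). In the other responses it had 0.70 (adjusted p = 0.11) for wild-type LPS, 0.32 for MyD88-/- LPS and 0.26 for MyD88-/- E. coli. Its genotype difference for E. coli was -1.49 (adjusted p = 0.105 by limma), and no difference of Ifnb1 between genotypes or stimuli was called. Stat2, the partner of Irf9, rose in MyD88-/- cells given E. coli (0.92, adjusted p = 0.0298) and had -0.35 and 0.31 with LPS in wild-type and MyD88-/- cells and 0.21 with E. coli in wild-type cells. That call was lost without MyD88-/- E. coli mouse 1, 2 or 4 (adjusted p = 0.0688 to 0.21), and no difference of Stat2 between genotypes or stimuli was called.

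Among 15 partners and regulators, 4 were higher with LPS in each genotype and 6 with E. coli in each, and 1 was lower, in wild-type cells given LPS. The shares over all probes were 7.99% and 5.28% higher with LPS, 9.43% and 6.35% with E. coli, and 9.04% lower in the wild-type LPS response. The repressor Prdm1, which binds sites that overlap those of the family, rose by 3.91 and 1.88 with LPS in wild-type and MyD88-/- cells, and the factor Ets2 by 2.12 and 1.57. Without MyD88-/- LPS mouse 2 the value of Prdm1 in that group was 1.15 and did not pass (adjusted p = 0.146 by limma), nor did it without mouse 1 (0.066) or mouse 3 (0.0592). The Ets2 call in MyD88-/- cells given LPS held in 12 of 16 such fits. The repressor Bcl6 was lower in wild-type cells given LPS (-0.60), which held in 8 of 16. Spi1, the partner of Irf8 and Irf4, rose in MyD88-/- cells given E. coli (0.65, adjusted p = 0.0211) and had 0.44 and 0.45 with LPS in wild-type and MyD88-/- cells and 0.32 with E. coli in wild-type cells. Without MyD88-/- E. coli mouse 4 it was 0.43 (adjusted p = 0.149), and without mouse 2 it did not pass (0.0757).

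Known targets of the family were read in the same way. Of 22 tested genes with interferon-stimulated response elements, 8 were higher with LPS in wild-type and 11 in MyD88-/- cells, 14 with E. coli in wild-type and 15 in MyD88-/- cells, and none was lower. Over all probes 7.99%, 5.28%, 9.43% and 6.35% were higher in the same order. Their median log2 ratios were 0.67, 0.84, 1.27 and 1.22, beside -0.048, -0.051, -0.057 and -0.049 over all probes. The chemokine Cxcl10 rose by 4.70 and 5.35 with LPS in wild-type and MyD88-/- cells, the chemokine Ccl5 by 3.93 and 4.21, and the antiviral gene Ifit1 by 1.88 and 4.02. The wild-type LPS call of Ifit1 held in 11 of 16 fits that each left out a mouse. Of 19 tested genes known to depend on Irf1 or Irf8, 9 were higher with LPS in wild-type and 11 in MyD88-/- cells, 9 with E. coli in wild-type and 12 in MyD88-/- cells, with medians of 0.39, 0.72, 0.53 and 0.97, beside the same shares of all probes. Here the cytokine Il15 rose by 3.16 and 3.01 with LPS, the adhesion molecule Vcam1 by 3.10 and 3.93 and the guanylate-binding protein Gbp3 by 1.92 and 3.66. Fcgr1, the high-affinity Fc receptor, was the one member of this list to fall, by 0.47 with LPS in both genotypes and by 0.58 with E. coli in wild-type cells. Its LPS calls were lost without wild-type LPS mouse 1 (adjusted p = 0.0756 by limma) and without MyD88-/- LPS mouse 1, 2 or 3 (0.0697 to 0.0826). None of the 6 lists had a member called in the genotype difference for LPS. For E. coli the suppressor of cytokine signalling Socs1, on 2 of the lists, was lower in MyD88-/- than in wild-type cells (difference -2.52, adjusted p = 0.0405 by limma), and this call held in 3 of 16 fits that each left out a mouse.

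**Figure D5:**
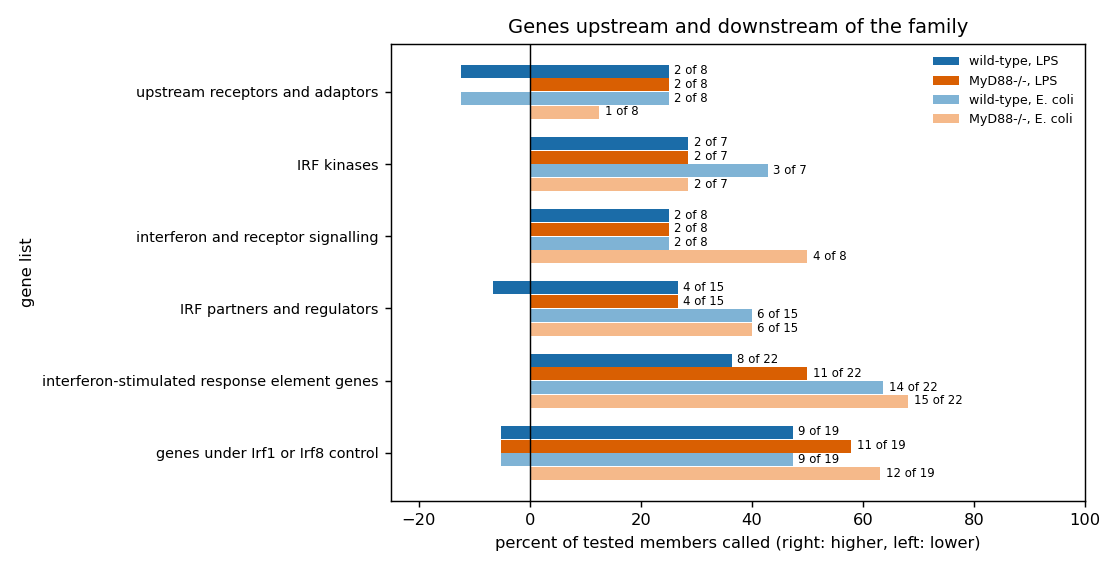
Percent of the tested genes on 6 lists around the family that were called higher (bars to the right, with the count printed) or lower (bars to the left), for the 4 groups. Among genes with response elements 8 of 22 were called higher in wild-type cells given LPS and 15 of 22 in MyD88-/- cells given E. coli.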

How the data were processed

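Spotted 2-colour arrays were scanned with a GenePix 4000B instrument, quantified with GenePix Pro 3.0 and then analysed with the BASE and GeneSpring software, per the labels. What the authors deposited for each array is the log2 ratio of its channels, and the background correction, normalization, spot filter and direction are not given in the sources used here. Values at the floor of log2(0.01), 4333 of 265421, were treated as missing. The dye pair of a mouse was averaged to give 16 mouse-level ratios, with 0 columns unmapped. The 15 dye pairs correlated over probes with r from 0.256 to 0.71. The 7325 of 13872 probes measured in at least 3 of 4 mice of every group were fitted together with limma 3.58.1 in R 4.3.3, with 1 coefficient per group and contrasts for the 4 responses, the genotype and stimulus differences and their interaction. Tests were 2-sided, adjustment followed Benjamini and Hochberg over those probes, and a call is an adjusted p under 0.05. Median SE were about 0.20 for responses and 0.29 for differences. Precision is limited by how few arrays there are, and the p-values measure the spread between these mice, which the labels do not say were cultured separately.

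Symbols come from GEO's platform annotation, where 11480 probes had 1 symbol, 50 several and 2342 none. Genes named were all family probes, the 3 probes most like each called member, the members with the largest called changes of each list and a few fixed pathway genes. For a listed gene on more than 1 probe, the probe measured on most arrays was used. The members and lists were chosen with earlier results of these data known, so the counts are no independent support. On simulated data with 7325 probes, the fit recovered 68% of changes of log2 1 and 96% of log2 2 in the MyD88-/- LPS response. In the genotype difference for LPS it recovered 50% and 82%. Among unchanged probes it made 9 and 6 false calls. The noise was normal and the same probes were changed for both comparisons, where the data gave 731 and 21 calls. Recovery depends on the share of changed probes, so these percentages may not hold in the data. Alternatives changed the centring and scaling, the floor, the filter, the dye, the samples in the fit and the probes of a gene, and left out each mouse in turn. Plots were made in matplotlib 3.10.9 (python 3.11.15).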

Additional observations from a re-analysis of the deposited data

Results flagged for a closer look

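Over 29 groups of 4 mice examined for the family, 1 mouse stood far from the others. Irf7 in MyD88-/- E. coli mouse 2 had a log2 ratio of 2.11, where the other mice had 0.63 to 0.76. Its gap to the nearest mouse was 0.91 of the range of the group, above Dixon's 95% critical value for 4 samples. Chance gives such a mouse in about 1 in 20 groups.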

How the results depend on the processing

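Over 12 other settings and 16 fits that each left out a mouse, 1681 of 1727 member values kept their side of the threshold. Of the others, 35 lost a call and 11 gained one. Most member values were uncalled in the main fit, many far above the threshold, so the share kept is no measure of how stable the calls are. All losses were of Irf5 with E. coli, Irf7 in MyD88-/- cells and Irf8 in wild-type E. coli. The Irf7 call in MyD88-/- LPS held in 6 of 11 settings and in 4 of 16 fits that each left out a mouse. In all, 0 called values changed sign, while 51 uncalled values among the 1681 did. Irf1 was called in all 4 responses under every setting and every mouse left out, and Irf8 likewise except in wild-type E. coli. The wild-type E. coli count of called members went from 3 to 1 when only the groups of the comparison were fitted and when only dye-swapped arrays were used. Leaving out single mice gave 2 called members for wild-type LPS, 2 to 3 for MyD88-/- LPS, 1 to 3 for wild-type E. coli, 2 to 5 for MyD88-/- E. coli and 0 for every difference. The 2 came without MyD88-/- E. coli mouse 2, and the 1 without wild-type E. coli mouse 2, 3 or 4.

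Single calls depended on the dye orientation. On dye-swapped arrays alone Irf8 in wild-type E. coli had an adjusted p of 0.232, and Irf7 had 0.467 for MyD88-/- LPS and 0.0534 for MyD88-/- E. coli by limma. Irf9 in MyD88-/- E. coli passed on those arrays (0.0186). Irf5 in MyD88-/- LPS passed by limma on unswapped arrays (0.0367) and after scaling (0.041), and Irf3 in wild-type LPS with a dye term (0.0493). The fit with a dye term called 1508 of all probes in wild-type LPS, against 1247 in the main fit. The cause of these changed calls was not tested. For the listed genes, single mice were left out as an alternative chosen after seeing the data, and 99 of 149 called values passed in every such fit. Irf4 alone reached a test when the filter covered its own group only, at -1.61 in wild-type LPS (adjusted p = 0.153).

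The labels number the mice alike across groups without saying that a number marks 1 animal. Same-numbered residuals correlated over all probes between -0.0568 and 0.191, with at most 1 of 4 pairs over 0.1 in a comparison, so the numbers were not treated as pairs. Single genes did vary with the number. Rsad2 and Ifit3 were higher in mice 1 and 2 than in mice 3 and 4 of every group. Irf7 was so in every group but MyD88-/- with E. coli. The reason was not tested. With the mouse number as a replicate block, 0 members were called in any of the 5 differences, and over all probes 26 were called in the genotype difference for LPS and 60 for E. coli, against 21 and 55 without it. Calls over all probes ranged over the settings from 653 to 1508 for wild-type LPS, 307 to 978 for MyD88-/- LPS, 848 to 1842 for wild-type E. coli and 436 to 1038 for MyD88-/- E. coli. They ranged from 12 to 42 and from 24 to 189 for the genotype differences, and the stimulus differences and interaction gave at most 1. With 4 mice per group, genotype differences of about 1 on the log2 scale are often missed, and larger ones can be. That of Ifnb1 for E. coli was -1.49 and did not pass (adjusted p = 0.105 by limma).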
